A study of Sus scrofa with 4 samples.

Results

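Heat shock proteins and other chaperones were followed in the liver of pigs fed clenbuterol, a β2-adrenergic agonist used against airway obstruction and, in livestock, as a repartitioning agent. The members are the 69 probe sets, of 15383 in the deposited results table, whose array target description contains "heat shock", DnaJ, chaperonin, calnexin, calreticulin or "protein disulfide isomerase". They carry 52 distinct names, and 64 of them passed a filter on low values (log2 values of 4 or more on 2 or more arrays), as did 11931 probe sets in all. None of the 64 passed through the arrays of 1 group alone. The study hybridised liver RNA of 4 Chinese mininature pigs (as the labels spell the strain), all sampled at 4 months of age, to the Affymetrix porcine array, 1 pig an array. The 2 treated pigs, 1 male and 1 female, received clenbuterol in the diet from 8 weeks of age and a mean weight of 18 kg, at 25 mg/kg 2 times a day over 4 weeks and then at 50 mg/kg for 4 more. The 2 control pigs, also 1 male and 1 female, ate the same diet with no clenbuterol. The labels do not say whether mg/kg refers to feed or to body weight, and they describe the pigs of a group as full sibs of the same gender although each group holds both sexes. With 2 animals a group, all differences below rest on 2 arrays against 2. Their errors are moderated ones (limma), in which the variance of each probe set is drawn toward that of all tested probe sets.

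Chaperones bind proteins that are not yet folded or have lost their fold. The HSP70 proteins work in cycles of ATP binding and hydrolysis that J-domain (DnaJ) partners start and nucleotide exchange factors end; HSP90 completes the folding of kinases and steroid receptors, and the barrel-shaped chaperonins, HSP60 in mitochondria and TRiC in the cytosol, enclose their clients. Small heat shock proteins hold unfolded chains without using ATP. In the endoplasmic reticulum, which hepatocytes use to make plasma proteins, calnexin and calreticulin retain glycoproteins while protein disulfide isomerases form and exchange their disulfide bonds, and heat shock factors switch on the genes of the cytosolic chaperones under stress.

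The chaperone transcripts that differed between the groups came from several families, and their share was close to that of the array as a whole. Of the 64 tested probe sets, 10 were higher and 3 lower in the clenbuterol livers at an adjusted p under 0.05 (limma, Benjamini-Hochberg over all 11931 probe sets), which is 20.3% against 23.8% of all tested probe sets. By direction, 11.4% of all tested probe sets were higher and 12.4% lower. The 10 that rose belong to 8 names: HSPA9 and HSPA8 of the HSP70 family, HSP90AA1, the J proteins DNAJA1 and DNAJB6, the small heat shock protein HSPB2, and the disulfide isomerases PDIA4 and PDIA5. The 3 that fell were CCT8 of the cytosolic chaperonin, DNAJC10 of the endoplasmic reticulum and an unnamed J-domain transcript. Their differences ran from 1.30-fold (HSPA8) to 2.64-fold (HSPA9) in size. The median difference over the 64 was 0.06 on the log2 scale, with quartiles of −0.17 and 0.34, beside a median of −0.03 and quartiles of −0.28 and 0.20 over all tested probe sets. Differences above 0 numbered 37 of 64 (57.8%), against 45.4% of all tested. Both treated arrays lay outside the range of the control arrays for 52 of the 64, and for 68.1% of all tested probe sets.

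**Figure D1:**
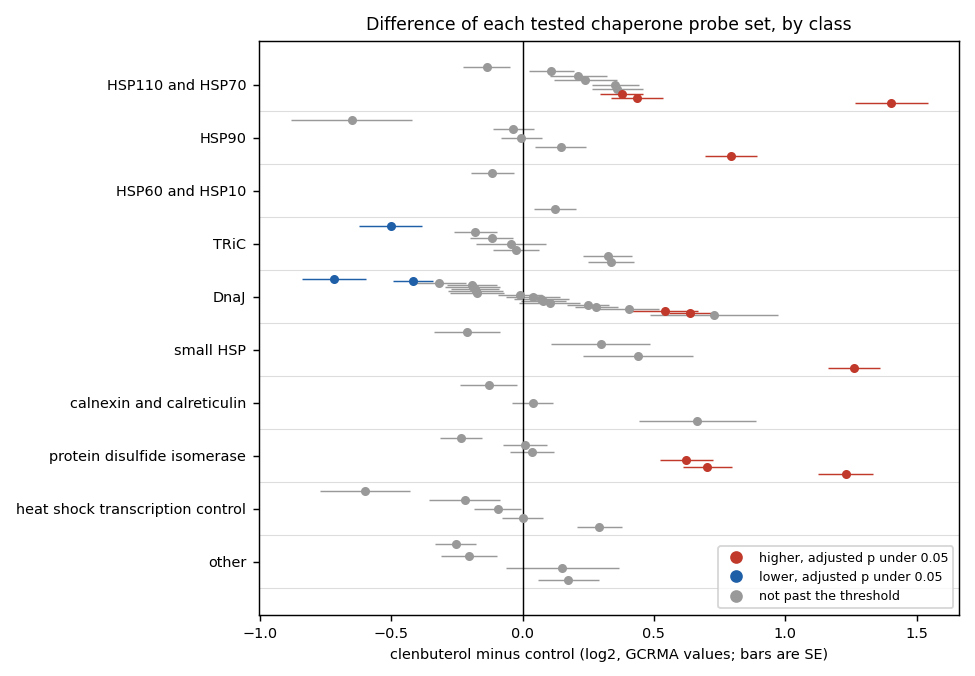
Difference between clenbuterol and control (log2, horizontal axis) of the 64 tested probe sets, grouped by chaperone class; bars are the SE of the fit over 2 arrays a group, red and blue points passed an adjusted p of 0.05. Of the 64 points, 50 lie within 0.5 of 0, and the 3 differences above 1 belong to HSPA9, HSPB2 and PDIA5.

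Of the hepatocyte markers, ALB, TTR, APOA1, TF and CYP2E1 read between 14.91 and 15.32 on every array and CYP3A29 between 13.68 and 13.79, while APOB, the exception, read 4.42 and 5.19 in the controls and 3.46 and 5.73 with clenbuterol; none of the 7 tested hepatocyte markers passed the threshold. Summed levels of other marker lists moved with treatment: stellate cell and fibroblast markers read 12.75 and 12.77 in controls and 13.28 and 13.26 with clenbuterol (log2 of the summed values; 5 of 7 higher, 1 lower), Kupffer cell and macrophage markers 14.58 and 14.62 against 14.92 and 14.84 (4 of 8 higher, of which MARCO, at 2.31 and 2.52 against 4.51 and 4.33, passed the filter through the treated arrays alone), and T and NK cell markers 8.56 and 8.32 against 9.08 and 9.18 (2 of 4 higher). The 2 tested neutrophil markers summed to 5.28 and 5.41 against 7.15 and 7.07 (1 higher), and the 3 cholangiocyte markers to 8.38 and 8.39 against 7.99 and 7.96 (2 lower), while the 3 endothelial markers split, 1 higher and 1 lower, and the 1 tested B cell marker did not pass. The neutrophil marker S100A8 and the cholangiocyte marker KRT7 were below the filter. In whole liver, more or fewer cells of a type cannot be told apart from more or less RNA per cell, and the part of these cell types in the chaperone differences was not tested.

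The HSP110 and HSP70 class held the largest difference of all members. Of its 12 probe sets 9 were tested, 8 of which lay above 0, with a median of 0.35, and 3 passed the threshold. HSPA9, or mortalin, is the HSP70 of the mitochondrial matrix, which pulls imported proteins through the inner membrane and folds them. Its probe set Ssc.6798.2.S1_at read 6.22 and 6.56 in the controls and 7.81 and 7.78 with clenbuterol, a difference of 1.40 ± 0.14 (SE; 2.64-fold, limma adjusted p = 0.00845). A second probe set for the transcript, Ssc.6798.1.S1_at, read 10.76 and 10.62 against 11.06 and 11.19, a difference of 0.44 ± 0.10 (1.35-fold, limma adjusted p = 0.0423). Both treated arrays stood above both controls on each probe set. The deposited title of both probe sets instead names a locus weakly similar to HSPA4L, another HSP70 relative, so the identity rests on the array design's description.

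HSPA8, the constitutive cytosolic HSP70 that also uncoats clathrin vesicles, read 12.30 and 12.28 in the controls and 12.63 and 12.70 with clenbuterol, 0.38 ± 0.08 higher (1.30-fold, limma adjusted p = 0.0380). The groups were tight and apart, although the deposited annotation lists this probe set as PLUNC. The stress-inducible HSP70.2 was read by 3 probe sets, at differences of 0.21 to 0.36, none past the threshold (smallest limma adjusted p = 0.0621). HSPA4 and HSPH1, both HSP110-type exchange factors for HSP70, lay at 0.35 and 0.11, also short of it. HSPA5 (BiP), the HSP70 of the endoplasmic reticulum lumen, was the only tested member of the class below 0: it read 12.94 and 12.94 in the controls and 12.74 and 12.87 with clenbuterol, −0.14 ± 0.09 (limma adjusted p = 0.318). The 3 untested probe sets, for HSPA6, a second HSPA4 and a transcript similar to HSPA8, read between 2.31 and 4.26 on all arrays, too low for the filter.

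HSP90, the chaperone of signalling proteins, gave different answers at different probe sets. The inducible cytosolic form HSP90AA1 was read 4 times. Ssc.12191.1.A1_at stood at 8.73 and 8.81 in the controls and at 9.48 and 9.65 with clenbuterol, 0.79 ± 0.10 higher (1.73-fold, limma adjusted p = 0.0128). On Ssc.12191.1.A2_at the values were 11.866 and 11.728 against 11.998 and 11.887, 0.15 ± 0.10 (limma adjusted p = 0.331). The first of these passed and the second did not.

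The remaining HSP90AA1 probe sets did not rise. Ssc.12191.2.A1_at read 9.75 and 9.70 against 9.74 and 9.71 (limma adjusted p = 0.978). In the series values of the same arrays, though, that probe set lay at −0.42 in the males and −0.49 in the females. Ssc.12191.3.A1_at read 5.69 and 5.82 against 4.79 and 5.42, −0.65 ± 0.23 (limma adjusted p = 0.114), with both treated arrays below both controls but far from each other. The constitutive form HSP90AB1 had 1 probe set, at 12.33 and 12.36 in the controls and 12.32 and 12.30 with clenbuterol (−0.04 ± 0.08, limma adjusted p = 0.774). Thus 1 of the 5 HSP90 probe sets passed.

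The mitochondrial chaperonin HSPD1 (HSP60) and its lid HSPE1 (HSP10) did not pass the threshold, nor did either at an unadjusted p under 0.05. HSPE1 read 13.55 and 13.55 in the controls and 13.70 and 13.64 with clenbuterol, 0.12 ± 0.08 (limma adjusted p = 0.312). HSPD1 lay at −0.11 ± 0.08 (limma adjusted p = 0.356). The genes are immediate neighbours in the pig assembly Sscrofa11.1, and their estimates lay on opposite sides of 0. Of the mitochondrial J proteins, DNAJA3, a partner of HSPA9, was at −0.17 and DNAJC11 at 0.41, neither past the threshold. Of the 6 mitochondrial probe sets, the 2 of HSPA9 were higher and none was lower, with 3 at an unadjusted p under 0.05. That level was reached by 28 of the 64 tested members. Over all tested probe sets the share at that level was not counted, and the 23.8% past the adjusted threshold is only a floor for it. The 28 of 64 therefore cannot be read as more than the share of the array.

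TRiC, the cytosolic ring chaperonin that folds actin and tubulin, was covered by 7 probe sets for 6 subunits. CCT8, its theta subunit, read 11.35 and 11.11 in the controls and 10.80 and 10.67 with clenbuterol, −0.50 ± 0.12 (1.42-fold lower, limma adjusted p = 0.0469). Both treated arrays stood below both controls. CCT2 read 11.53 and 11.42 against 11.43 and 11.47 (−0.02 ± 0.09, limma adjusted p = 0.867), and CCT5 and CCT7 lay at −0.18 and −0.12. CCT4 lay at 0.32 (limma adjusted p = 0.0733), and the CCT6A probe sets gave 0.34 ± 0.09 (limma adjusted p = 0.0579; 9.32 and 9.21 against 9.57 and 9.63) and −0.04 ± 0.13 (limma adjusted p = 0.835; 10.16 and 9.85 against 10.01 and 9.91). The probe sets of this complex, whose subunits are assembled into rings together, ran from −0.50 to 0.34 and 1 of 7 passed. TCP1, the alpha subunit, whose description the member rule does not catch, was 0.35 ± 0.08 higher (10.26 and 10.20 against 10.61 and 10.55, limma adjusted p = 0.0455).

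The J proteins, which deliver clients to HSP70, formed the most numerous class, with 20 probe sets and 16 names; 19 were tested, 2 rose and 2 fell, and the median was 0.04. DNAJB6, a J protein known for keeping polyglutamine proteins from aggregating, read 9.26 and 9.21 in the controls and 9.85 and 9.90 with clenbuterol, 0.64 ± 0.08 higher (1.56-fold, limma adjusted p = 0.0131). Its second probe set was as far apart but noisier, 7.05 and 7.46 against 7.70 and 8.27 (0.73 ± 0.24, limma adjusted p = 0.101), and did not pass. DNAJA1, a farnesylated cytosolic partner of HSP70, read 10.98 and 10.71 against 11.45 and 11.33 (0.54 ± 0.13, 1.45-fold, limma adjusted p = 0.0446). On its other probe set, at 9.76 and 9.58 against 9.80 and 9.69, the groups overlapped (0.07 ± 0.10, limma adjusted p = 0.652).

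DNAJC10 (ERdj5) is a disulfide reductase of the endoplasmic reticulum that opens misfolded proteins for degradation. It read 8.13 and 8.14 in the controls and 7.71 and 7.72 with clenbuterol, −0.42 ± 0.08 (1.33-fold lower, limma adjusted p = 0.0279), with almost no spread within a group. The unnamed J-domain transcript (Ssc.10048.1.S1_at) read 9.78 and 9.50 against 8.95 and 8.89, −0.72 ± 0.12 (1.65-fold lower, limma adjusted p = 0.0230). The deposited title of that probe set names a locus similar to a G protein gamma subunit, so the gene is given no name here. DNAJC3 (p58IPK), which binds unfolded proteins in the endoplasmic reticulum, had probe sets at −0.19 ± 0.09 (8.14 and 8.29 against 8.06 and 7.99, limma adjusted p = 0.210) and 0.08 ± 0.09 (4.07 and 4.18 against 4.18 and 4.23, limma adjusted p = 0.538). DNAJB1, the J protein that rises with HSP70 in a heat shock, lay at −0.01 (limma adjusted p = 0.949), and the 1 probe set of the class below the filter, DNAJC9, read between 2.27 and 3.54.

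**Figure D2:**
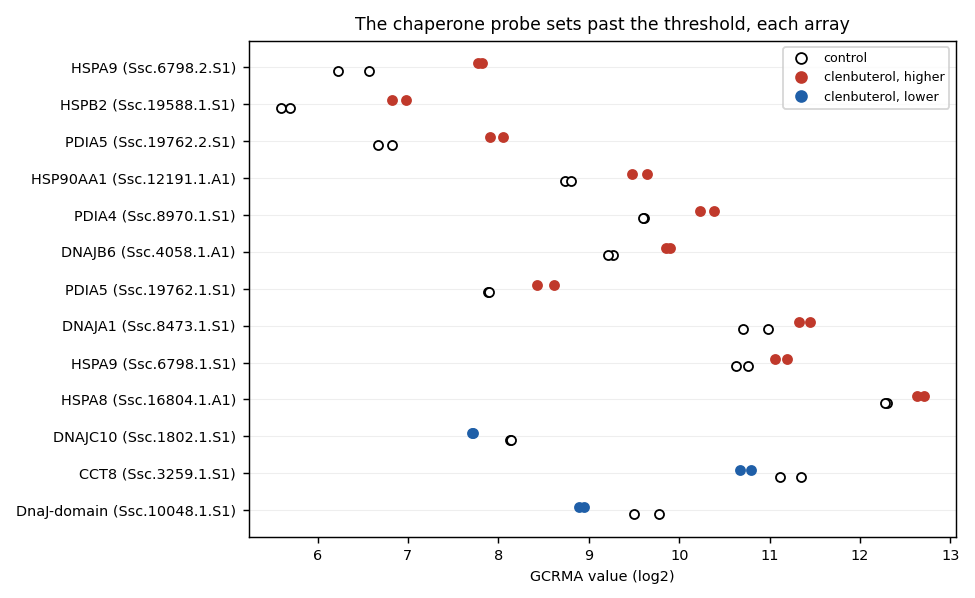
GCRMA value (log2, horizontal axis) of the 13 probe sets past the threshold on each array; open circles are the 2 control arrays and filled circles the 2 clenbuterol arrays. The rows were chosen for a difference between the groups, and in every row both filled circles lie on the same side of both open ones.

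HSPB2, a small heat shock protein first described as a binder of the myotonic dystrophy kinase and best known from muscle, had the smallest adjusted p of the members. It read 5.59 and 5.69 in the controls and 6.83 and 6.98 with clenbuterol, 1.26 ± 0.10 higher (2.39-fold, limma adjusted p = 0.00580). A second HSPB2 probe set, below the filter, read 2.86 to 2.88 on all arrays. CRYAB, αB-crystallin, lies immediately beside HSPB2 in Sscrofa11.1 and was the only other small heat shock gene tested outside the members. It read 7.30 and 7.14 against 8.54 and 8.44, 1.27 ± 0.10 higher (limma adjusted p = 0.00580). The differences of the neighbours were close in the GCRMA values but not in the series values, where CRYAB was higher by 1.36 in the males and 1.36 in the females and HSPB2 by 0.97 and 0.87.

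No other small heat shock protein passed. HSPB1 (HSP27), the widely expressed form, read 11.04 and 11.16 in the controls and 11.02 and 10.75 with clenbuterol, −0.21 ± 0.13 (limma adjusted p = 0.283). HSPB6 and HSPB7 lay at 0.44 and 0.30, with the 2 treated arrays far apart on each (limma adjusted p = 0.200 and 0.309). Of the 7 tested stellate cell and fibroblast markers, 5 were higher and 1 lower. COL1A1 and TIMP1 were higher by 1.42 and 1.01, while RGS5, of the same list, lay at −1.37. The part of these cells in the HSPB2 difference was not tested.

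In the endoplasmic reticulum, 16 probe sets numbered 3 higher and 1 lower, with a median of 0.04, and the disulfide isomerases held all 3 that rose. PDIA5, a disulfide isomerase reported in human cells to act on the stress sensor ATF6, rose on both of its probe sets. Ssc.19762.2.S1_at read 6.82 and 6.67 in the controls and 7.91 and 8.05 with clenbuterol, 1.23 ± 0.10 (2.34-fold, limma adjusted p = 0.00640). Ssc.19762.1.S1_at read 7.89 and 7.90 against 8.42 and 8.61, 0.62 ± 0.10 (1.54-fold, limma adjusted p = 0.0203). The probe sets went the same way at different sizes.

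PDIA4 (ERp72), a disulfide isomerase found in complexes with BiP, rose on 1 of its 2 probe sets. On Ssc.8970.1.S1_at it read 9.62 and 9.59 against 10.38 and 10.23, 0.70 ± 0.09 (1.63-fold, limma adjusted p = 0.0140). On Ssc.8970.1.S2_at it read 11.51 and 11.55 against 11.59 and 11.49, 0.01 ± 0.08 (limma adjusted p = 0.950), and the groups overlapped. P4HB, the classical protein disulfide isomerase and a subunit of collagen prolyl hydroxylase, was below its controls on both treated arrays at 13.24 and 13.27 against 13.04 and 12.99, without passing (−0.24 ± 0.08, limma adjusted p = 0.102). PDIA6 lay at 0.04.

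The lectin chaperones did not pass, 0 of 3 probe sets, beside 23.8% of all tested probe sets. At an unadjusted p under 0.05 there was 1 of the 3, beside 28 of the 64 tested members. Calnexin (CANX) read 12.10 and 12.09 in the controls and 12.14 and 12.13 with clenbuterol on one probe set (0.04 ± 0.08, limma adjusted p = 0.750), and 5.54 and 4.92 against 5.89 and 5.90 on another (0.67 ± 0.22, limma adjusted p = 0.101). Calreticulin (CALR) lay at −0.13 (limma adjusted p = 0.432). The deposited annotation gives both CANX probe sets as EEF1A1 and the CALR probe set as an MHC class I glycoprotein. These are 3 of 8 members whose deposited title names another gene than the array description. The 8 leave out titles that name only a similar locus, as for HSPA9 and the unnamed J-domain transcript. Among the 8, CCT2 is deposited as protamine 1, PDIA6 as glutathione S-transferase and AHSA1 as tubulin alpha.

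The regulators of the heat shock response were also short of the threshold, 0 of 5 probe sets, beside 23.8% of all tested probe sets. Of the 5, 2 were at an unadjusted p under 0.05, beside 28 of the 64 tested members. HSF1, the factor that turns on chaperone genes in a heat shock, lay at −0.10 (limma adjusted p = 0.470), and HSF2, its relative, at 0.00 (limma adjusted p = 0.998). HSBP1, which binds HSF1 trimers, gave 0.29 ± 0.08 on one probe set (10.74 and 10.66 against 11.03 and 10.95, limma adjusted p = 0.0731) and −0.60 ± 0.17 on the other (6.09 and 6.09 against 5.26 and 5.72, limma adjusted p = 0.0714). Each separated the groups, in opposite directions. Of the 4 remaining members, the collagen chaperone SERPINH1 (HSP47) lay at 0.15 with the treated arrays at 7.80 and 7.22, the HSP90 activator AHSA1 at −0.20 and its relative at 0.17. A transcript that the array describes as similar to a heat shock protein, and that the deposited annotation gives as selenoprotein K (SELK), read 11.58 and 11.60 against 11.34 and 11.32 (−0.26 ± 0.08, limma adjusted p = 0.0816).

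Several of these genes were measured more than once, so probe sets of the same gene can be set side by side. Among the 12 names with 2 or more tested probe sets, HSPA9 and PDIA5 passed on every probe set, HSP90AA1, PDIA4, DNAJA1 and DNAJB6 on 1, and 6 on none. The estimates had opposite signs in 4: HSP90AA1, HSBP1, CCT6A and DNAJC3. For CCT6A and DNAJC3 this rested on an estimate within its SE of 0 (−0.04 ± 0.13 and 0.08 ± 0.09). The widest gap was 1.44 on the log2 scale, at HSP90AA1, and the narrowest 0.09, at DNAJB6. Probe sets of a gene read different stretches of its transcript, and 3′-to-5′ ratios of the array's control transcripts moved with treatment in these libraries. For GAPDH, the log2 ratio of the 3′ to the 5′ probe set was 1.68 and 1.81 in the controls and 1.03 and 1.28 with clenbuterol, and in 7 of 10 control pairs both treated arrays lay below both controls. Several of these pairs were for GAPDH, so the pairs are not all separate transcripts. The shift runs with the groups. Its part in the differences between probe sets of a gene, in the calls above and in the listed genes below was not tested.

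**Figure D3:**
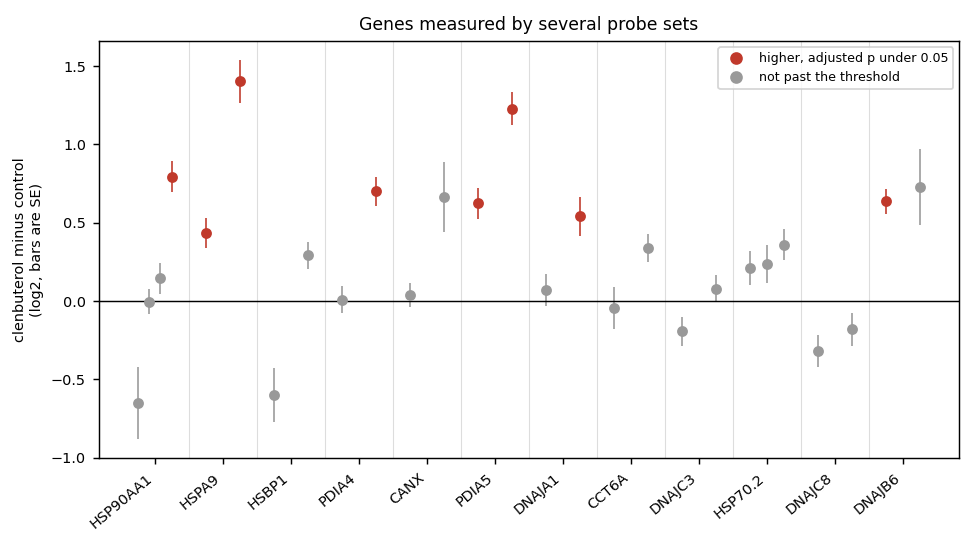
Difference between clenbuterol and control (log2, vertical axis) for the 12 genes with 2 or more tested probe sets, in order of the gap between them; each point is a probe set and bars are its SE. The points of HSPA9 and PDIA5 all lie above 0, while those of HSP90AA1 run from −0.65 to 0.79.

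The series value table, in which each column is a labelled pig, let the males and the females be set side by side. Each sex has 1 control and 1 treated pig, so no test of their difference is possible. Of the 64 tested probe sets, 55 had the same sign in both pairs, beside 74.5% of all tested probe sets, and 9 had opposite signs. All 13 probe sets past the threshold went the same way in both pairs and in the GCRMA values. Both sets of values come from the same 4 arrays, and the 13 were chosen for a group difference. The shared sign is therefore no separate support. HSPA9 (Ssc.6798.2.S1_at) was higher by 1.06 in the males and 0.90 in the females, and HSP90AA1 (Ssc.12191.1.A1_at) by 0.77 and 0.86. These were close to equal. PDIA5 (Ssc.19762.2.S1_at) was higher by 0.67 in the males and 1.22 in the females. On the lower side CCT8 stood at −0.51 and −0.52 and the unnamed J-domain transcript at −0.73 and −0.72. HSPB1 lay at −0.01 in the males and at −0.70 in the females. For 6 of the 64, both pairs had the sign opposite to that of the GCRMA difference, among them HSF1, at 0.78 and 0.30 in the series values.

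**Figure D4:**
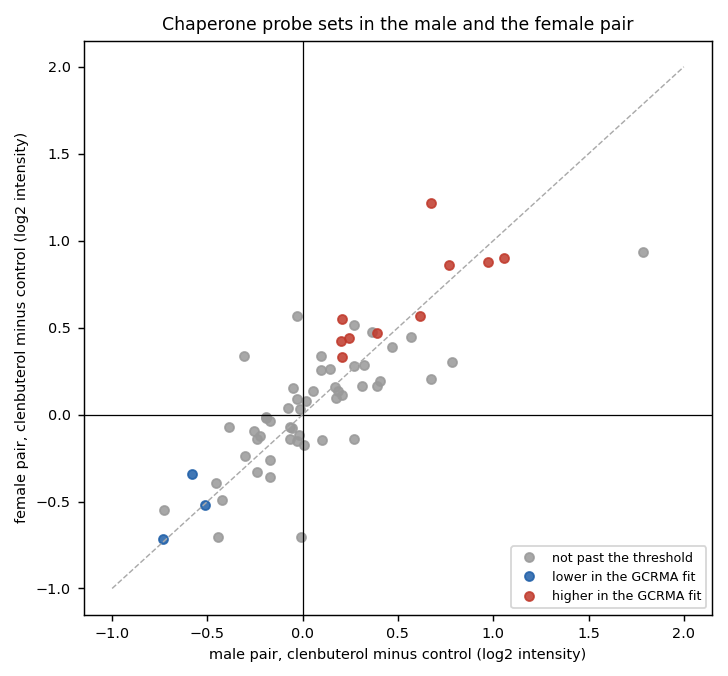
Difference between clenbuterol and control in log2 intensity of the series values for the male pair (horizontal axis) and the female pair (vertical axis), a point for each of the 64 tested probe sets; the dashed line marks equal differences. The red and blue points, past the threshold in the GCRMA values of the same arrays, all lie in the quadrants where both pairs share a sign.

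Partners and clients of the chaperones were taken from lists of genes by function, with the brightest probe set of each gene. Of 54 such genes outside the members, 8 were higher and 3 lower, which is 20.4%, beside the 23.8% of all tested probe sets. The choice of probe set matters here: counting a gene where any of its probe sets passed, a count added after the values were seen, gave 18 of 54, 15 higher and 3 lower, and genes with several probe sets have more chances to be counted. The 7 genes added, all higher, were BAG1, BAG3, PDIA3, SEC61A1, SEC63, SIL1 and TRAP1. GRPEL1, the nucleotide exchange factor that resets HSPA9, was 0.79 ± 0.10 higher (9.21 and 9.40 in the controls, 10.06 and 10.12 with clenbuterol, limma adjusted p = 0.0136). On the brightest probe sets no other of 13 HSP70 and HSP90 partners passed, but 3 did on another probe set. BAG3, which links HSP70 to autophagy, lay at 0.39 on its brightest (limma adjusted p = 0.0825) and read 6.02 and 6.38 against 7.55 and 7.20 on the other, 1.18 ± 0.19 higher (limma adjusted p = 0.0199). BAG1 and SIL1, both exchange factors of HSP70 proteins, were higher by 0.64 and 0.41 on their other probe sets (limma adjusted p = 0.0129 and 0.0390). Among 10 prefoldin and peptidyl-prolyl isomerase genes PFDN1, a subunit of the prefoldin that hands clients to TRiC, rose by 0.46 ± 0.08 (limma adjusted p = 0.0234). ERP44, which retains disulfide-bonded proteins in the early secretory pathway, was 0.40 ± 0.09 higher on its brightest probe set (limma adjusted p = 0.0391). On its other probe set ERP44 lay at −0.004 (limma adjusted p = 0.986).

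The 3 lower genes are among the 14 listed for the unfolded protein response and degradation from the endoplasmic reticulum, beside 12.4% lower over all tested probe sets. In that list SEC61A1, of the translocation channel, lay at −0.07 on its brightest probe set and was higher on another (5.17 and 5.28 against 6.20 and 5.86, 0.80 ± 0.14, limma adjusted p = 0.0253). SYVN1 (HRD1), the ubiquitin ligase of that degradation, read 9.95 and 9.98 in the controls and 9.17 and 9.20 with clenbuterol, −0.78 ± 0.08 (limma adjusted p = 0.00864). MANF, a secreted protein induced by unfolded proteins, lay at −0.44 ± 0.09 (limma adjusted p = 0.0329), and SEC61B, of the same channel, at −0.41 ± 0.09 (limma adjusted p = 0.0373). XBP1, a transcription factor of the response, lay at −0.37 ± 0.10 (limma adjusted p = 0.0600), DDIT3 at −0.05 and ATF4 at −0.03. Collagens, the clients of SERPINH1, rose in 3 of 4 on their brightest probe sets (COL1A1 1.42, COL1A2 0.58 and COL3A1 0.44). SERPINH1 itself did not pass, although in the series values it was higher by 0.57 in the males and 0.45 in the females. The other probe sets of COL1A2 (0.35) and COL3A1 (0.22 and −0.14) did not pass. Here too probe sets of a gene parted: of 11 such genes with several tested probe sets, 10 had some past the threshold and others not. TRAP1, the mitochondrial HSP90, lay at 0.09 on its brightest probe set and at 1.31 on another (limma adjusted p = 0.0136).

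**Figure D5:**
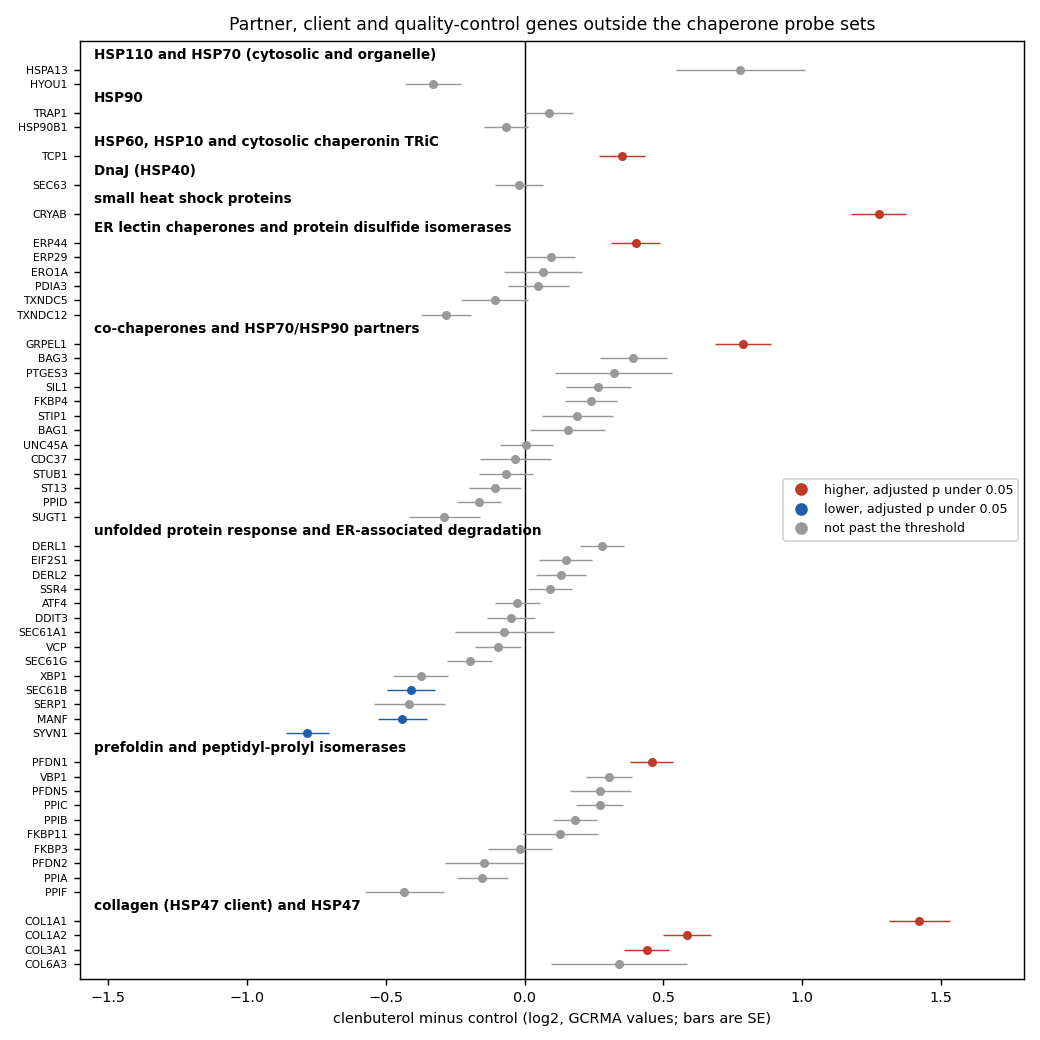
Difference between clenbuterol and control (log2, horizontal axis) of the brightest tested probe set of each listed gene outside the chaperone probe sets, grouped by function; bars are SE, red and blue points passed an adjusted p of 0.05. CRYAB and COL1A1 lie farthest to the right and SYVN1 farthest to the left.

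The calls rest on few animals. Leaving out 1 array leaves 1 array in a group, and most of the 13 calls were then lost, whichever array was left out. The median difference of the members then ran from 0.03 to 0.10. The series values kept 5 of the 13 calls and added none. HSPB2 passed in all 11 alternatives fitted, PDIA5 (Ssc.19762.2.S1_at) in 10, HSPA9 (Ssc.6798.2.S1_at) in 9 and HSP90AA1 (Ssc.12191.1.A1_at) in 8; HSPA8, DNAJA1, CCT8, DNAJC10, HSPA9 (Ssc.6798.1.S1_at) and PDIA5 (Ssc.19762.1.S1_at) passed in 3 or 4 and the others in 5 or 7. HSPA9 (2.64-fold), HSPB2 (2.39-fold) and PDIA5 (2.34-fold) are the members that, in the authors' deposited table, carry the flag of a joint selection by SAM and limma, as do 4.49% of all its probe sets. Scaling the series values to the spiked-in controls raised the median of all probe sets to 0.35 and gave 22 members higher and 0 lower (2959 and 254 over all), where CCT8 lay at −0.14 and DNAJC10 at −0.09, short of the threshold; relative to all probe sets the members' median was then 0.08.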

How the data were processed

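Liver RNA of 4 pigs was measured on 4 arrays. Log2 values were made with GCRMA, per the submitters' processing notes, and deposited by the authors in columns tied to a group by the deposited group means but to no pig. The authors also deposited linear intensity values per labelled pig, whose log2 was taken here; their scaling is not given in the sources read. The authors' deposited signed fold (a score), p-value, q-value and selection flag were read as given, by position, since the annotation headings are shifted. Differences were fitted with limma 3.58.1 in R 4.3.3 (lmFit and eBayes, group alone, two-sided, Benjamini-Hochberg over the probe sets past the filter), tested on simulated data. Members and lists were chosen with earlier results of these data known, and gene names, which follow the array design's descriptions, were written after values had been seen; 48 of 52 are in RefSeq's Sscrofa11.1 table. Array values are given for members past the threshold, for the brightest and the most different tested member of each class, and for the other probe sets of genes whose probe sets differ in call or direction. Other genes named singly were picked after their values were seen, apart from up to 4 listed genes a list with the smallest p. No sequences were used here, and the number of arrays limits the precision. Alternatives were no filter, a filter at 6, a trend in the prior variance, the series values plain, with the replicate number as a block, scaled to 27 spiked-in probe sets or with a pseudocount of 16, each array left out, 1 probe set per gene, and chaperones only.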

Additional observations from a re-analysis of the deposited data

Results flagged for a closer look

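Of the 64 tested members, 9 had a male and a female pair that moved in opposite directions in the series values (clenbuterol minus control, log2 intensity, 1 pig per sex and group), and the difference was not tested. Among them are 4 whose values on each array are given above. HSPE1 lay at −0.0775 in the males and 0.0404 in the females. DNAJC3 (Ssc.21408.2.S1_at) lay at 0.102 and −0.145. CANX (Ssc.21107.3.A1_at) lay at −0.0322 and 0.567. PDIA4 (Ssc.8970.1.S2_at) lay at 0.271 and −0.138. DNAJC11, given above by its difference alone, lay at −0.309 and 0.339. None of the 9 passed the threshold in the GCRMA values.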

How the results depend on the processing

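The number of members past the threshold, 13 in the fit as reported, was 20 with a trend in the prior variance, 5 in the series values, 4 there with the replicate block, 8 with the pseudocount of 16, 22 with scaling to the spikes, and 2 to 5 with 1 array left out. The count over all probe sets, 2843, was 1326 in the series values, 1054 with the replicate block, 1630 with the pseudocount, and 579 to 1213 with 1 array left out. Of the 54 listed genes outside the members, 11 passed in the fit as reported, 17 with the trend, 4 in the series values, 3 with the replicate block, 6 with the pseudocount, 18 with a gene counted on any probe set (added after seeing the data), and 3 to 4 with 1 array left out. Over all tested probe sets, 3345 passed with the trend (28.0%, against 23.8% in the fit as reported), and 26.9% passed with scaling to the spikes. With no filter, 10 of 69 members and 15.3% of all 15383 probe sets passed. With the filter at 6, 18 of 59 members and 32.7% of all 9126 tested probe sets passed. The members' median difference, 0.06, was 0.43 after scaling to the spikes. No member past the threshold changed sign in any of the 11 alternatives fitted. Same-numbered pigs of the 2 groups share a sex. The GCRMA columns name no pig, so the number could not serve as a pairing in the fit as reported. It served as a block only in an alternative fit of the series values. The correlation of the deviations of same-numbered pigs was 0.18 over 11931 probe sets with 2 pairs. Under the block HSPA9 (Ssc.6798.2.S1_at), HSPB2, HSP90AA1 (Ssc.12191.1.A1_at) and the unnamed J-domain transcript passed. The causes of these changes were not tested. With 1 array left out, the lone array of its group is assumed to vary like the other group.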
